A study of Homo sapiens with 10 samples.

Results

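The regions described here are 10837 narrow peaks of H3K4me3 that HEK-293T cells with a non-targeting shRNA (CT) had and that cells with knockdown of CGGBP1 (KD) had not. They were selected on the deposited peak lists. A peak of the CT list was taken when it was narrower than 1500 bp and shared not a base with any peak of the KD list. The CT list holds 76814 H3K4me3 peaks, of which 70544 were narrower than 1500 bp, so 15.4% of the narrow peaks were taken. They are called lost peaks below, and the 59707 narrow CT peaks that overlap a KD peak are called kept peaks. The reverse choice gave 15847 gained peaks, 20.9% of the narrow peaks of the KD list, which has 81932 peaks in all.

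HEK-293T is a human embryonic kidney line. The CT and KD cells were transduced with lentiviruses that carry a non-targeting shRNA or shRNAs against CGGBP1 and were selected with puromycin, and cells that overexpress CGGBP1 (OE) were used for CTCF alone. Chromatin immunoprecipitation with sequencing gave 1 library for H3K4me3, H3K9me3 and H3K27me3 in each of CT and KD, 1 for CTCF in each of CT, KD and OE, and 1 input library. Differences between conditions therefore have no replicate check, and no p-value is given. The lists hold positions on hg38 and neither heights nor read numbers, so the depth behind a peak is unknown. The knockdown itself cannot be checked in them, and the start of CGGBP1 had an H3K4me3 peak in CT and in KD. All 8 genes set as markers of the line, among them PAX2, LHX1, NEFM and LIN28B, had an H3K4me3 peak within 1000 bp of a start in both conditions, as had all 5 genes that every cell uses. Among markers set for other cells, HBB, MYOD1 and COL1A1 also had one in both.

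H3K4me3, histone H3 trimethylated at lysine 4, is laid down by SET1 and MLL complexes and marks promoters in use, above all those in CpG islands, where it is broad. Weaker and narrower H3K4me3 is also found at enhancers. CGGBP1 is a DNA-binding protein with affinity for CGG repeats, and CTCF is a zinc finger protein that binds a long motif and, with cohesin, anchors chromatin loops.

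Sequences of a few lost peaks show the sites with CTCF, which are a minority of the set. All are from the plus strand of hg38. The first 3 each overlap a CTCF peak and were chosen as the lost peaks of at most 300 bp with the best match to the CTCF motif in each class of CTCF peak, with the 14 bases of the match in capitals. In the first and in the second, at SPI1 (a transcription factor of blood cells) and PDIA4 (a protein disulfide isomerase of the endoplasmic reticulum), the match is the same run of bases on the plus strand. In the third, at RAG1 (a recombinase of antigen receptor genes), it lies on the minus strand.
CTCF in CT and KD, inside SPI1, chr11:47374007-47374200: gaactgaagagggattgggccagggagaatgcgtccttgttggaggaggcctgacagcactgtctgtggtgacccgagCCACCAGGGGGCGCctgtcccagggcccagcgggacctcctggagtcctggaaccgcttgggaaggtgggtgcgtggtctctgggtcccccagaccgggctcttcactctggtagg
CTCF in KD without CT, inside PDIA4, chr7:149005836-149006078: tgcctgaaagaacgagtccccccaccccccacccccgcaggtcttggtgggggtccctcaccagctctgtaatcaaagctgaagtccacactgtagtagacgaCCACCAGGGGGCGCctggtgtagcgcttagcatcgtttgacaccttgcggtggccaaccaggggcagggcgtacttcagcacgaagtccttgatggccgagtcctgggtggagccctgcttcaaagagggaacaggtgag
CTCF in CT without KD, inside RAG1, chr11:36541078-36541277: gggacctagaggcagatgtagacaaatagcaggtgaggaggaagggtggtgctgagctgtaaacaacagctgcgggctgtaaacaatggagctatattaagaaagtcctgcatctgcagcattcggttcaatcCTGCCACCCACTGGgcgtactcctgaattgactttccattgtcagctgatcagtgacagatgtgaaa
The lost peak over the start of SLC9A4, a sodium and hydrogen exchanger, is shown by 200 bases around its motif match, in capitals, because it was the only lost peak among the 12 named below for gene starts that had a CTCF peak, in KD and OE and not in CT.
Start of SLC9A4, chr2:102473017-102473216: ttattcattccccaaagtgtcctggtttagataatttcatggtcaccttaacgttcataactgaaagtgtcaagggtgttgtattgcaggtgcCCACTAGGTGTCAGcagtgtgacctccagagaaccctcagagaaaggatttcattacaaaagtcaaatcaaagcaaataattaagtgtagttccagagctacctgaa

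A set of lost peaks stood apart from the others and was seen only after the values were examined. Of the lost peaks, 503 overlapped coding sequence, and 229 of these lay in 22 genes that had at least 4 such peaks each. Of the 22 genes, 16 are known from cancer, many of them as DNA repair genes, and 6 encode muscle proteins or enzymes known from inherited muscle disease. ATM, the kinase that signals DNA double-strand breaks, had 42 lost peaks, all over coding sequence. The DNA repair genes BRCA2, RAD50, BRIP1 and BRCA1 had 18, 15, 12 and 11 over coding sequence, and the cell adhesion gene CDH1 had 12. Among the muscle genes, LAMA2 (a laminin chain) had 19 of its 23 lost peaks over coding sequence, COL6A3 (a collagen chain) all 14, and DYSF (dysferlin) and CAPN3 (a muscle calpain) all 7 each. No gene had 4 or more gained peaks over its coding sequence.

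Many of the exons of these genes also lay under H3K27me3 peaks of CT. The 22 genes have 667 separate coding blocks, a block being a stretch that is coding in at least 1 transcript. H3K4me3 peaks of CT lay over 281 of them and H3K4me3 peaks of KD over 29, a difference that the choice of the genes by their lost H3K4me3 peaks fixes in part. The other lists had no part in that choice. H3K27me3 peaks of CT lay over 257 and H3K27me3 peaks of KD over 0. H3K9me3 peaks lay over 20 in CT and 10 in KD, all of them in the muscle genes, CTCF peaks over 3 in CT and 4 in KD, and input peaks over 0. In ATM, 46 of 62 blocks had an H3K4me3 peak in CT and 0 in KD, and 50 had an H3K27me3 peak in CT and 0 in KD. In CDH1, 14 of 16 blocks had an H3K4me3 peak in CT and 1 in KD, and 14 had an H3K27me3 peak in CT. The muscle genes had fewer blocks under H3K4me3 and H3K27me3 peaks of CT than the cancer genes. H3K4me3 peaks of CT lay over 75 of 313 blocks in the muscle genes and 206 of 354 in the cancer genes, and H3K27me3 peaks of CT over 39 and 218. H3K4me3 peaks of KD lay over 14 and 15. Of the 229 lost peaks over these blocks, 183 overlapped an H3K27me3 peak of CT. They were 259 bp wide at the median, against 261 bp for the other 10608 lost peaks, and they were 8 of the 100 widest lost peaks. The source of the reads over these exons was not tested, and whether these peaks are H3K4me3 and H3K27me3 signal or DNA of another origin cannot be told from the lists. The labels state that the libraries were prepared without barcodes. Shares near starts, in exons, over coding sequence and with H3K27me3 are given with and without these 229 peaks. Of the 274 lost peaks over coding sequence of other genes, 24 overlapped an H3K27me3 peak of CT. They remain in the shares without the 229.

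**Figure D1:**
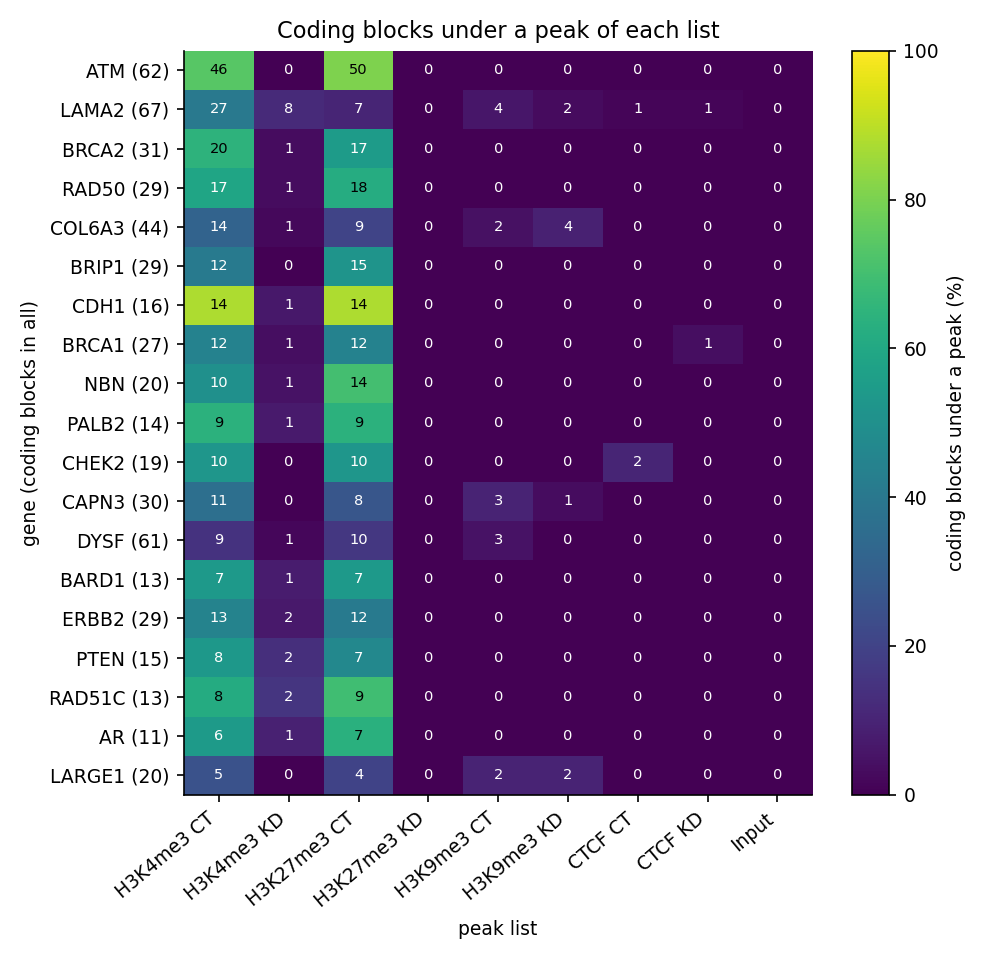
Number of coding blocks under a peak of each list for the 19 of the 22 genes that had at least 5 lost peaks over coding sequence, with all blocks of the gene in parentheses and colour for the share of blocks. The columns H3K4me3 CT and H3K27me3 CT are filled, while H3K27me3 KD and input hold 0 throughout and H3K4me3 KD holds 24 of the 550 blocks plotted.

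Width, like presence in CT and KD, belongs to the choice of the peaks and is described only. Lost peaks were 194 to 1231 bp wide, with a median of 261 bp, against 576 bp for kept and 257 bp for gained peaks. The share of narrow CT peaks without a KD peak was 57.1% below 200 bp, 24.6% from 300 to below 350 bp, 7.35% from 500 to below 550 bp and 0.197% from 1000 to below 1050 bp. The limit of 1500 bp therefore lay far above the lost peaks. The widest kept narrow peak was 1 bp below it, the narrowest CT peak above the limit was 1500 bp, and 1 of the 6270 CT peaks above it had no KD peak. The other border of the choice was closer to its members. Lost peaks within 10 bp of a KD peak numbered 48, and kept peaks that overlap KD peaks by at most 10 bp numbered 56. The median kept peak had 94.8% of its bases under KD peaks. Of the lost peaks, 22.5% lay within 1000 bp of a KD H3K4me3 peak and 14.7% within 1000 bp of a kept CT peak, and the median distance to the nearest KD H3K4me3 peak was 7931 bp.

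**Figure D2:**
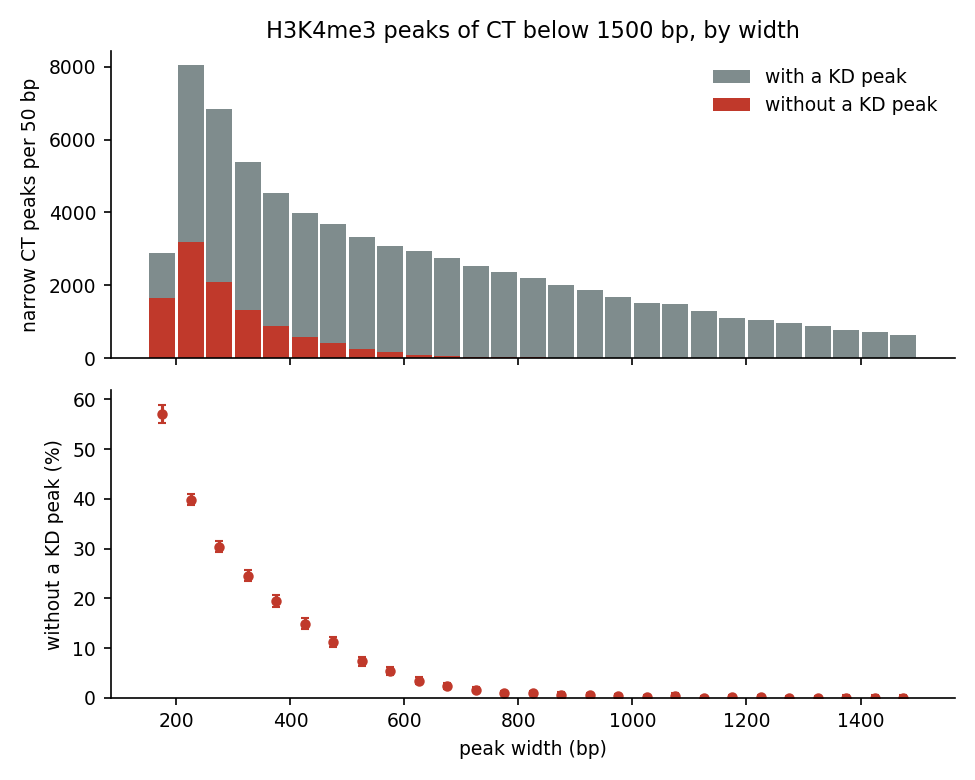
Number of narrow H3K4me3 peaks of CT per 50 bp of width, with and without a KD peak (top), and the share without a KD peak with exact 95% intervals (bottom). The share falls from 57.1% below 200 bp to under 1% from 750 bp on.

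Lost peaks lay mostly away from gene starts. An annotated transcription start site was within 1000 bp of 9.18% of lost peaks (exact 95% interval 8.64 to 9.74), 36.7% of kept and 12.6% of gained peaks. The difference was -27.5 percentage points against kept peaks (95% interval -28.2 to -26.9) and -3.43 against gained peaks (-4.18 to -2.68). These intervals take each peak as a unit and cover counting error within these libraries only. A start site lay inside 2.18% of lost, 18.6% of kept and 3.57% of gained peaks. Starts of protein-coding genes alone were within 1000 bp of 5.96% of lost peaks. Among peaks of at least 500 bp the share was 9.89% for lost and 44.8% for kept peaks, so it stayed low where lost peaks were wide. Without the 229 peaks on exons it was 8.64%.

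Beyond 1000 bp from a start, 50.8% of lost peaks had their centre in an intron, 4.38% in an exon and 33.2% between genes, and 2.45% lay on sequences without gene annotation. Introns held 32.5% of kept and 49.4% of gained peaks. Exons held 2.18% of kept and 3.40% of gained peaks, and the excess of lost peaks over kept ones was 2.20 points (1.81 to 2.62). With the coding blocks of the 22 genes left out of all 3 sets, exons held 3.196% of lost, 2.18% of kept and 3.40% of gained peaks. Those genes were chosen by their lost peaks, so these shares are a description. Coding sequence lay under 4.64% of all lost peaks and under 2.58% of the 10608 lost peaks left without the 229 described above, against 4.18% of gained and 12.2% of kept peaks, a measure that includes peaks near starts. The gene context of the lost peaks was thus closer to that of the gained than of the kept peaks, apart from the exons described above.

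**Figure D3:**
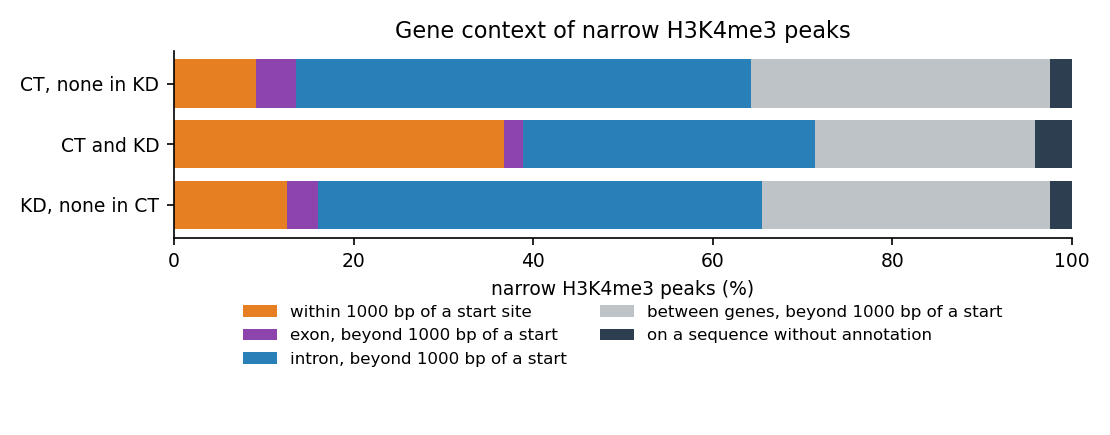
Share of narrow H3K4me3 peaks near a start site, in exons, in introns, between genes and on sequences without annotation. Start sites are near 9.18% of the lost peaks (top), 36.7% of the kept (middle) and 12.6% of the gained peaks (bottom).

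Few genes had no H3K4me3 peak left at their starts. Of 20046 protein-coding genes, 14701 had a CT peak within 1000 bp of a start and 14862 a KD peak. A lost peak lay within 1000 bp of a start of 591 genes, of which 516 also had a KD peak there. The remaining 75 genes had none, and in 24 of them the lost peak covered the start itself. The widest of these covered starts inside COL6A3 (782 bp) and CAPN3 (559 bp), both on coding exons with an H3K27me3 peak of CT. The next lay at CYSLTR1, a receptor for cysteinyl leukotrienes, 508 bp wide at chrX:78327234-78327741, with 93789 bp to the nearest KD H3K4me3 peak. EMCN, a sialomucin of endothelial cells, had a lost peak of 492 bp at chr4:100517913-100518404, and ECM1, a protein of the extracellular matrix, had one of 480 bp at chr1:150507768-150508247. At SLC9A4 the lost peak measured 404 bp, at GSTA1 (a glutathione transferase) 386 bp and at CDH17 (an intestinal cadherin) 385 bp. GJA5 (connexin 40) followed with 341 bp, 773 bp from a KD peak that lies beyond 1000 bp of its starts. LPAR4 (a receptor for lysophosphatidic acid), CFHR5 (a complement factor H related protein) and ADGRL4 (an adhesion receptor of endothelium) had peaks of 322, 312 and 298 bp. Of the 12 peaks, 11 had a GC content between 37.5% and 55.5%, and that at ADGRL4 had 33.9%.

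The gene groups fixed as lists held between 0 and 4 genes each with a lost peak at a start. Of all 20046 protein-coding genes, 14701 had a CT peak and 591 a lost peak, a share at which small groups would hold few or none. Among genes with a CT peak, lost peaks lay at 3 of 31 HOX genes, 3 of 12 olfactory receptors and 4 of 45 protocadherins, larger shares than this. The other lists had smaller shares. Of 86 genes of cytosolic ribosomal proteins, 82 had a CT peak and 0 a lost peak, and of 69 replication-dependent histone genes 53 had a CT peak and 0 a lost one. The 15 genes of CTCF, cohesin and its regulators and the 14 genes of the H3K4 methylation machinery all had CT and KD peaks and 0 lost peaks. Among 39 HOX genes 3 had a lost peak beside a KD peak: HOXB8 (578 bp), HOXC11 (248 bp) and HOXA13 (219 bp). Among 126 developmental factors these were SOX6 (378 bp), LHX8 (302 bp) and SOX2 (197 bp), again with KD peaks at a start. Of 249 zinc finger genes on chromosome 19, 4 had a lost peak and ZNF600 and ZNF560 had no KD peak. The olfactory receptors, silent in most cells, had 12 CT peaks among 415 genes. Lost peaks at OR4F17 (326 bp), OR51T1 and OR4F5 (194 bp) left those genes without a KD peak. Among 66 protocadherins, PCDH18, PCDHB16, PCDH7 and PCDH15 had a lost peak, and PCDHB16, of the clustered beta family, had no KD peak.

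Lost peaks were poor in G and C. Their median GC content was 40.2%, against 48.0% for kept and 45.9% for gained peaks. Lost peaks were lowest in each of 4 width classes, while kept and gained peaks changed places below 350 bp. Below 250 bp the medians were 40.6% for lost, 45.4% for kept and 45.8% for gained peaks, and from 500 bp to the limit they were 38.8%, 49.3% and 46.6%. The 10 kb around the peaks differed less, with medians of 39.5%, 42.6% and 41.2%. A GC content of at least 50% with at least 0.6 of the CpG expected from base composition, as in CpG islands, was found in 1.78% of lost, 20.5% of kept and 5.86% of gained peaks. At least 3 CGG units in a row, on either strand, occurred in 0.0369% of lost, 2.60% of kept and 0.505% of gained peaks, a difference of -0.468 points between lost and gained (-0.593 to -0.353). In all, 4 lost peaks held such a run. On assembled chromosomes there were 2, both with 3 units, in a peak of 432 bp with 86.8% repeated bases on chromosome 16 and in the lost peak of 197 bp at SOX2, a transcription factor of stem cells. The other 2 lay on an alternate and an unplaced sequence, the latter with 5 units. The chromosome 16 run, on the minus strand and in the wider of these peaks, is shown in capitals with the surrounding bases of its peak, since CGG repeats are the best known target of CGGBP1.
CGG run on chromosome 16, chr16:32115522-32115617: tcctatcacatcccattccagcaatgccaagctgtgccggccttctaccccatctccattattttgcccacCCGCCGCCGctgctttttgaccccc

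**Figure D4:**
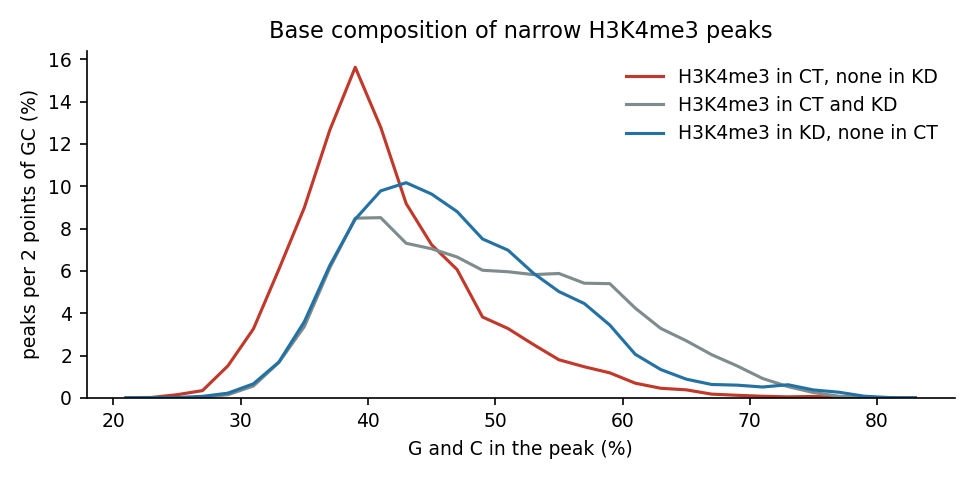
Distribution of GC content in lost, kept and gained narrow H3K4me3 peaks, as percent of each set per 2 points of GC. The lost peaks have their median at 40.2%, the gained ones at 45.9% and the kept ones at 48.0%.

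Sequence with many exact copies in the genome made up a minority of the bases of lost peaks. The reference used marks no repeats, so repeated bases were defined as those inside any 24-mer with 10 or more copies in hg38. Repeats whose copies have diverged are missed or counted in part, so the shares are not a full repeat content. Repeated bases were 14.1% of lost (95% interval 13.5 to 14.6), 10.9% of kept and 14.3% of gained peaks. With a minimum of 100 copies these shares were 10.5%, 7.60% and 9.60%, and with 1000 copies they were 8.18%, 5.52% and 6.498%. Within each of 4 width classes the order of lost and kept peaks was the reverse. Below 250 bp repeated bases were 22.4% of lost and 29.5% of kept peaks, from 250 to below 350 bp 12.2% and 24.5%, and from 500 bp to the limit 6.58% and 8.72%. Gained peaks had 20.4% below 250 bp, less than lost peaks, and 11.2% from 500 bp to the limit (9.62 to 12.8), more than lost peaks (5.24 to 7.93). Most lost peaks held no repeated base by this measure: 26.96% had any repeated base, and 15.3% had at least 0.5 of their bases repeated. Tandem tracts of at least 20 bp with units of up to 6 bases occurred in 1.02% of lost, 3.28% of kept and 0.656% of gained peaks. AC was the most frequent unit in lost peaks, in 28 of them, and AATGG was found in 11.

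The 1655 lost peaks that were repeated over at least 0.5 of their bases included 93.4% of the lost peaks with an H3K9me3 peak of CT, 68.3% of those with an H3K27me3 peak of CT and 94.9% of those with an input peak. For CTCF peaks they were a smaller part, 34.98% in CT and 31.8% in KD. CTCF peaks lay at 29.9% of them in CT and 37.8% in KD, against 10.0% and 14.6% of the other lost peaks. Of kept and gained peaks repeated over at least 0.5 of their bases, 44.3% and 20.2% had a CTCF peak of KD. H3K9me3 peaks of CT lay at 29.2% of the 1655 lost peaks and at 0.370% of the other lost peaks. Input peaks lay at 10.1% of the 1655 lost peaks. In 14 windows of 1 Mb with at least 25 lost peaks, 12 had over 90% repeated bases in the lost peaks. These 12 held 397 lost, 196 gained and 1252 narrow CT peaks in all. The share of their narrow CT peaks that were lost was 31.7%, against 15.4% of all narrow CT peaks. The windows were chosen by their number of lost peaks, so these counts are a description. These 12 windows lie on chromosomes 1, 5, 7, 10 and 19, in or next to the centromere regions, where the assembly is made of satellite arrays. The window from 40000001 to 41000000 on chromosome 10 had the most, with 46 of 96 narrow CT peaks lost and 99.98% of their bases repeated. Of these 46 peaks, 36 overlapped a CTCF peak of KD, 31 one of CT, 32 an H3K9me3 peak of CT and 18 an H3K27me3 peak of CT. The windows with few repeated bases in the lost peaks were those of ATM (43 of 55 narrow CT peaks lost) and LAMA2 (27 of 62), with 0.703% and 1.81%.

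CTCF peaks were found at a minority of lost peaks, and at more of them in KD than in CT. A CTCF peak overlapped 13.1% of lost peaks in CT (12.4 to 13.7), 18.1% in KD (17.4 to 18.9) and 18.1% in OE. The CTCF lists hold 42978, 47632 and 47216 peaks, so the lists of KD and OE are longer. The same shares were 15.6%, 20.8% and 19.8% for kept peaks and 10.2%, 14.5% and 13.98% for gained peaks. Lost peaks thus had more CTCF than gained peaks, by 2.86 points in CT (2.07 to 3.65) and 3.66 in KD (2.75 to 4.57), and less than kept peaks, by -2.53 points in CT (-3.22 to -1.82) and -2.61 in KD (-3.40 to -1.81). Without peaks at input peaks the shares of lost and kept peaks were closer, 12.5% and 13.3% in CT and 17.4% and 18.3% in KD, and most of the gap was then absent. Beyond 1000 bp of a start they were further apart, 13.4% and 19.9% in CT and 18.6% and 25.6% in KD. The gap to kept peaks also varied with width. CTCF peaks of KD lay at 15.4% of lost and 31.2% of kept peaks from 250 to below 350 bp, and at 17.8% and 20.8% from 350 to below 500 bp. In CT the shares in these classes were 10.3% and 24.9%, and 13.5% and 14.97%. Lists made from repeat-masked reads gave lower shares, with CTCF at 7.79% of lost peaks for CT, 9.50% for KD and 8.66% for OE, and the same order of CT and KD. By these lists the excess over gained peaks was smaller, 1.18 points in CT (0.551 to 1.82), 0.891 in KD (0.192 to 1.60) and 0.629 in OE (-0.0441 to 1.31), while the difference from kept peaks was -2.21 points in CT (-2.76 to -1.64) and -2.63 in KD (-3.23 to -2.01). The masked CT list is the longer one there, with 26635 peaks against 24418 in KD.

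**Figure D5:**
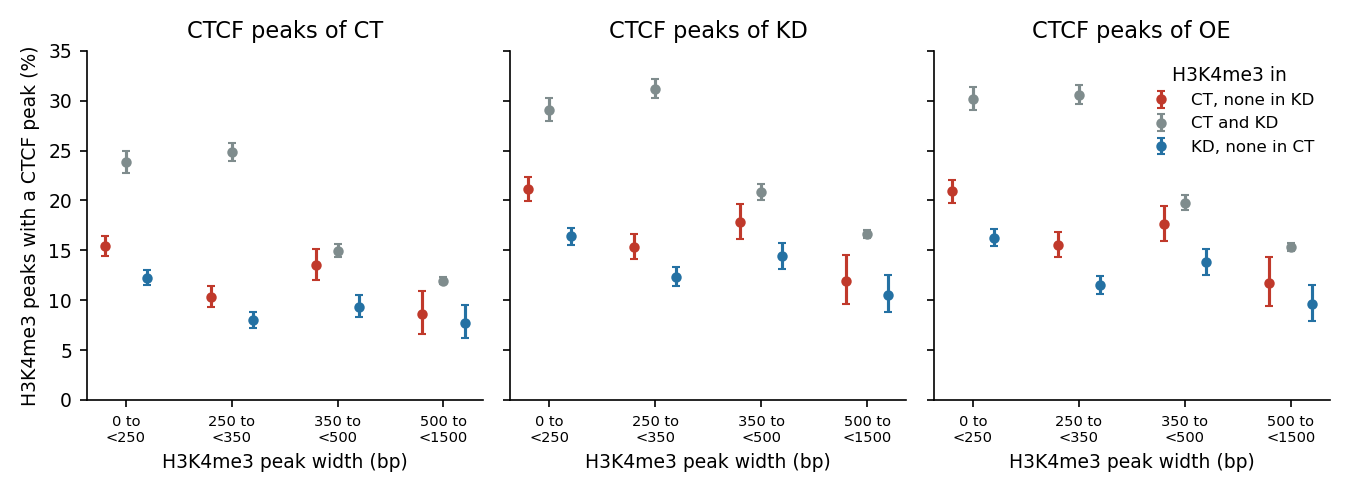
Share of H3K4me3 peaks that overlap a CTCF peak of CT, KD or OE, by width class and by whether the H3K4me3 peak is in CT and KD, in CT alone or in KD alone, with exact 95% intervals. In every class and list the lost peaks lie above the gained ones in value and below the kept ones, the intervals of lost and gained overlap from 500 bp on, and those of lost and kept overlap from 350 to below 500 bp in CT and OE.

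Most CTCF peaks of CT at lost H3K4me3 peaks had a CTCF peak in KD as well. Of the lost peaks, 1178 had a CTCF peak in CT and KD, 788 in KD and not CT, 237 in CT and not KD, and 8634 in neither. Among all CTCF peaks of CT, 49.8% overlapped no CTCF peak of KD, and among the 1413 at lost H3K4me3 peaks 16.0% did so (14.1 to 18.01), 226 peaks. At kept H3K4me3 peaks this share was 11.4%, and at gained ones 15.8%. In the other direction, 54.8% of all CTCF peaks of KD overlapped none of CT, and among the 1964 at lost H3K4me3 peaks 38.1% (36.0 to 40.3), against 39.2% at gained ones. CTCF peaks at lost and at gained H3K4me3 peaks were therefore shared between CT and KD at nearly the same rate.

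The classes of CTCF peak differed in sequence. A match to the CTCF motif at p below 0.0001 was found in 46.1% of lost peaks with CTCF in CT and KD (43.2 to 49.0), in 33.2% of those with CTCF in KD and not CT, in 15.6% of those with CTCF in CT and not KD (11.2 to 20.9), and in 12.5% of those with neither. The matrix was learned from masked CTCF peaks of CT that overlap peaks of KD and OE, so this order is not independent of the classes. Repeated bases followed the opposite order among those with CTCF: 27.6%, 30.95% and 49.4% of bases in the first, the second and the third class, and 10.0% in peaks with neither. The OE list had a CTCF peak at 89.1%, 68.7% and 40.5% of the first, the second and the third class. The class with CTCF in CT and not KD was thus, of those with CTCF, the poorest in motifs, the richest in repeats and the least often shared with OE. Among gained peaks it was so too, with 15.1% motif matches, 46.5% repeated bases and 31.4% shared with OE. Among kept peaks it was the poorest in motifs (38.9%) and the least shared with OE (28.6%), but its repeated bases (18.03%) were fewer than in the class with CTCF in CT and KD (23.996%). Over all lost peaks the motif was matched in 17.7%, against 45.7% of kept and 23.998% of gained peaks. Wider peaks have more room for a match. By width class, lost and kept peaks had 12.9% and 18.1% below 250 bp, 17.9% and 26.2% from 250 to below 350 bp, 26.7% and 38.8% from 350 to below 500 bp, and 25.8% and 57.6% from 500 bp to the limit. Gained peaks had 16.9%, 25.01%, 34.1% and 43.5%, more than lost peaks in each class. At p below 0.00001 the shares were 7.15%, 14.8% and 7.13%, so lost and gained peaks differed by 0.0207 points (-0.604 to 0.655).

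The widest lost peaks of each class lay in or at varied distances from genes. Distances are to the nearest protein-coding gene. The widest lost peak of all, 1231 bp at chr20:10306539-10307769, was in SNAP25, a protein of synaptic vesicle fusion, had a CTCF peak in KD and not in CT or OE, and lay 653 bp from a start. Others with CTCF in KD and not CT were in TLE4, a corepressor (1012 bp, 260 bp from a KD H3K4me3 peak), in RBM27, an RNA-binding protein (955 bp), and in LRRC7 (761 bp). A further peak of 848 bp lay 72633 bp from PKHD1 and another of 801 bp lay 141610 bp from FERMT1, and these 2 of the 6 held a motif match. With CTCF in CT and not KD, the widest were in SRGAP2B (967 bp), at a start inside ANAPC5, a subunit of the anaphase-promoting complex (646 bp). The next lay 81073 bp from TRPS1 (635 bp wide), 9181 bp from UBE2N (629 bp), 8466 bp from CTNNA3 (626 bp) and 140650 bp from PKHD1 (622 bp). None of these 6 held a motif match or a CTCF peak of OE. With CTCF in CT and KD, the widest lay 80795 bp from PAPOLG (885 bp wide), in TTC1 (885 bp), 7523 bp from FBXL20 (682 bp) and 15669 bp from UBXN2B (658 bp). All 4 had a CTCF peak in OE and at least 1 motif match.

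Peaks of the marks of silent chromatin overlapped a small part of lost peaks. The labels and the methods name opposite antibodies for H3K27me3 and H3K9me3, and the lists are named here by their labels. H3K27me3 peaks lay at 6.47% of lost peaks in CT and 3.87% in KD. The shares were 5.56% and 4.90% for kept and 2.87% and 1.90% for gained peaks. In CT the order of lost and kept peaks changed with width. Below 250 bp the shares were 9.15% of lost and 17.6% of kept peaks, and from 250 to below 350 bp 4.64% and 16.0%. From 350 to below 500 bp they were 3.44% and 3.52%, and from 500 bp to the limit 5.01% and 1.39%. Of all H3K27me3 peaks of CT, 38.3% overlapped none of KD, and of the 705 at lost H3K4me3 peaks 59.4% (55.7 to 63.1). At kept H3K4me3 peaks this share was 16.5%. Lost peaks with an H3K27me3 peak numbered 701 in CT and 419 in KD. Those on the coding blocks of the 22 genes numbered 183 in CT and 0 in KD. Those repeated over at least 0.5 of their bases numbered 479 in CT and 411 in KD, a smaller difference. Of the 416 lost peaks with H3K27me3 in CT and not in KD, 183 were on these coding blocks. Of the same 416 peaks, 200 were repeated over at least 0.5 of their bases. Conversely, 134 lost peaks had H3K27me3 in KD and not in CT. Without peaks repeated over at least 0.5 of their bases, H3K27me3 lay at 2.42% of lost peaks in CT. Without the 229 peaks on exons, it lay at 4.88% of lost peaks in CT and 3.95% in KD. The widest lost peaks with either mark were on coding exons of BRCA1 (1076 bp), BARD1 (1056 bp), DAG1, the dystroglycan gene (993 bp), and BRCA2 (972 bp), each with an H3K27me3 peak in CT and none in KD, and none had a CTCF peak. H3K9me3 peaks lay at 4.78% of lost peaks in CT and 4.21% in KD, against 4.95% and 4.87% of kept peaks. At gained peaks the shares were 2.57% and 2.88%. Below 250 bp H3K9me3 peaks of CT lay at 8.05% of lost and 14.6% of kept peaks, and from 250 to below 350 bp at 2.67% and 13.7%. They lay at 1.32% and 3.12% from 350 to below 500 bp, and at 1.72% and 1.56% from 500 bp to the limit. Of all H3K9me3 peaks of CT, 68.5% overlapped none of KD, and of the 520 at lost H3K4me3 peaks 37.1% did so, against 16.9% at kept ones. An input peak lay at 1.62% of lost peaks (1.39 to 1.88), 3.36% of kept and 0.713% of gained peaks.

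The share of narrow CT peaks that were lost varied between chromosomes. It was lowest on chromosomes 19 (8.45%), 17 (9.24%) and 16 (9.97%), where the median narrow CT peak had 56.7%, 53.6% and 53.3% GC. It was highest on chromosomes 13 (19.6%), 5 (18.8%) and 18 (18.3%), where these medians were 40.8%, 43.0% and 43.0%. GC content did not order all chromosomes, as chromosome 22 had a median of 53.5% and 12.6% of its narrow CT peaks lost. These shares rest on the values that chose the peaks and are a description.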

How the data were processed

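The authors mapped single-end reads to hg38 with Bowtie2 and called peaks with MACS2 in each library. The deposited lists give positions in bp and no score. Labels and methods state different p thresholds for them. Starts were read as counted from 0 and are printed counted from 1. The members and lists were chosen with earlier results of these data known. Peaks overlapped when they shared at least 1 bp. Genes came from GENCODE release 44. The CTCF matrix of 14 columns was learned from 12859 masked CTCF peaks of CT that overlap KD and OE peaks. Named genes are those of the widest lost peaks of each class, with up to 4 from each list. The 22 genes with peaks on exons and the printed sequences were chosen after values were seen. Shares have exact Clopper-Pearson 95% intervals, differences Newcombe intervals, and percents of bases normal intervals over peaks. Computations used Python 3.11.15 with numpy and pandas and were tested on simulated data. Alternatives changed the overlap, the width, the lists and the thresholds.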

Additional observations from a re-analysis of the deposited data

How the results depend on the processing

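With no replicate and no read number for each peak, absence from a list cannot be told apart from a signal just below its threshold, and the number of peaks limits the precision. Of 57 recomputed values of the count, starts, repeats, CTCF, motif and input, 28 stayed within 1.5 times the count of lost peaks or within the 95% interval of the share. Among these 28, the count was 8394 when a KD H3K4me3 peak within 1000 bp counted as present. It was 14198 when at least 0.5 of the CT peak had to be covered by KD peaks. For the 29 others, given here, the cause was not tested. Of 28 further values for exons, coding sequence, H3K27me3 and GC, 16 stayed within the interval and 12 did not. When a KD H3K4me3 peak within 1000 bp counted as present, lost peaks near a start were 7.27%, repeated bases 14.7%, CTCF in CT 15.2%, CTCF in KD 21.0% and the motif 18.8%. Below 500 bp, repeated bases were 15.2%. From 500 bp to the limit there were 698 lost peaks, with 9.89% near a start, 6.58% repeated bases, CTCF at 8.60% in CT and 11.9% in KD, the motif in 25.8% and input at 0.573%. Without peaks at input peaks, repeated bases were 12.9% and CTCF in KD 17.4%. A start lay inside 2.18%, and starts of protein-coding genes were near 5.96%. A minimum of 100 copies gave 10.5% repeated bases. Repeat-masked lists gave CTCF at 7.79% in CT and 9.50% in KD, and CTCF within 1000 bp 16.9% and 21.8%. The motif at p below 0.00001 was in 7.15%. As alternatives added after seeing the data, leaving out the peaks on exons of the 22 genes gave 8.64% near a start, and leaving out peaks repeated over at least 0.5 of their bases gave 9.91% near a start, 2.58% repeated bases, CTCF at 10.0% in CT and 14.6% in KD, and input at 0.0980%. CTCF was more frequent in KD than in CT in each of these settings.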

Other observations

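Starts of genes without a protein product had lost peaks too. Of 18866 genes of long non-coding RNAs, 6031 had a CT H3K4me3 peak within 1000 bp of a start, 261 had a lost peak there, and 121 of these had no KD peak at any start. Among 10146 processed pseudogenes, 427 had a CT peak and 54 a lost peak, of which 47 had no KD peak. Of 1879 microRNA genes, 18 had a lost peak near a start, and 12 of those had no KD peak. Among protein-coding genes 75 of 591 had no KD peak, and among unprocessed pseudogenes 6 of 15. Absence of a KD peak belongs to the choice of the lost peaks, so these counts are a description.

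Protein-coding genes with an H3K4me3 peak at a start in KD and in CT not numbered 241, and those with one in CT and not in KD numbered 80. Narrower lost peaks over the starts of genes without a KD peak, chosen after their values were seen, included those at DCC, a netrin receptor (255 bp), SCN1A, a neuronal sodium channel (235 bp), PCP4 (231 bp) and MB, the myoglobin gene (227 bp). Those at SCN1A and PCP4 had a CTCF peak in CT, KD and OE.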
